A study of Mus musculus with 8 samples.

Results

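The comparison described here set microglia of icKO mice against microglia of control mice when both had experimental autoimmune encephalomyelitis (EAE) and were treated with iguratimod. It rests on 2 of the 8 arrays of the series, 1 for each genotype. Genes were taken into it where their level lay above the array's median of named probe sets on at least 1 of the 2 arrays, which kept 16404 of 30748 named genes (53.3%). A gene was given by its brightest probe set, as log2(intensity + 16).

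The mice were of the strain C57Black/6J. EAE is an autoimmune inflammation of the central nervous system that is used as a model of multiple sclerosis, and iguratimod is a small-molecule antirheumatic drug. The label icKO marks a conditional knockout, which the series title places in oligodendroglia. The control array is titled FL, whereas its source field calls the mice wt, so the labels disagree on whether the controls carried floxed alleles. The other 6 arrays held the same 2 genotypes without disease (naive), with EAE, and with EAE under a label p50 whose meaning is not given. On the p50 arrays the control is labelled F/F. The labels do not give the Cre line, the age of the mice, the dose or timing of iguratimod, or how many animals stand behind an array. With 1 array a side there was no replicate error for this pair, so its differences are given as values without a test.

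Microglia are the resident macrophages of the brain and spinal cord. When they meet damaged myelin or dying cells they lower a homeostatic programme and raise phagocytic, lysosomal and lipid genes, a state known as disease-associated. Interferons drive a second set of genes, among them antiviral effectors, MHC molecules and the chemokines that draw T cells. Iguratimod is known for lowering the output of inflammatory cytokines, acting on NF-kB signalling, cyclooxygenase 2 and macrophage migration inhibitory factor.

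Under iguratimod, most genes of the disease-associated, antiviral and antigen presentation lists, and a few CXC chemokine genes, stood higher in icKO than in control microglia, while genes of the homeostatic programme were split between higher and lower. Markers of neutrophils and monocytes were higher in icKO too, with medians of 1.05 and 0.89 over the markers kept. Of the 16404 genes, 227 (1.38%) were at least 2-fold higher in icKO and 350 (2.13%) at least 2-fold lower. At 4-fold the balance was the other way, with 23 genes higher and 3 lower. Among genes coding for proteins in RefSeq 142 were higher and 51 lower, and the other kinds of genes supplied 299 of the 350 lower ones. Over all genes kept 48.7% were higher in icKO to any extent. The median difference was -0.01 on the log2 scale, and from the 5th to the 95th percentile the differences ran from -0.77 to 0.63. Both arrays were of similar brightness, with median intensities of 267 in control and 249 in icKO. Values above the range of a 16-bit scanner made up 2.20% of rows on the control and 2.12% on the icKO array, and near-equal levels of such bright genes do not show that the genes were alike. A further quantile normalization gave 323 higher and 266 lower, so that the share of higher genes among those 2-fold apart was 54.8% in place of 39.3%, and centring the arrays on their medians gave 55.9%.

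**Figure D1:**
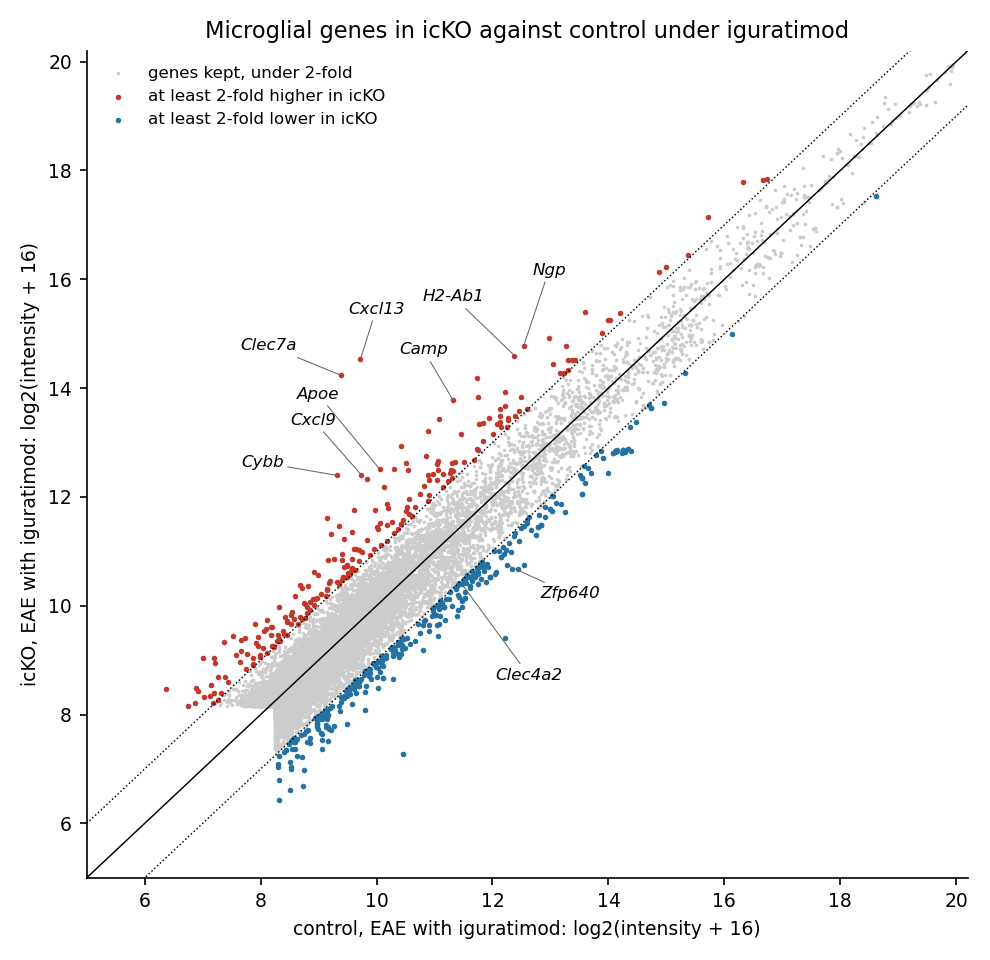
Each point is 1 of the 16404 genes kept, with its level on the control array across and on the icKO array up, both as log2(intensity + 16). Red points are the 227 genes at least 2-fold higher in icKO and blue points the 350 at least 2-fold lower, the solid line marks equal levels and the dotted lines 2-fold. Clec7a and Cxcl13 stand farthest above the line.

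Clec7a, which encodes the beta-glucan receptor dectin-1 and marks disease-associated microglia, had the largest difference among the genes that could be named. Its level was 9.38 on the control array and 14.24 on the icKO array, a difference of 4.86 or 28.9-fold. Cxcl13, the chemokine that guides B cells, followed with 9.72 in control and 14.53 in icKO, 27.9-fold. Cybb, which encodes the catalytic subunit of the phagocyte NADPH oxidase, had 9.31 and 12.40, 8.49-fold. Cxcl9, an interferon-induced chemokine for activated T cells, had 9.74 and 12.41, 6.37-fold. On the control array all 4 genes lay close to or below 10, and on the icKO array all 4 lay above 12.

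The sequences around the start sites of these 4 genes are shown because they had the largest differences and belong to programmes for which binding motifs are known. The windows run from 250 bases before to 50 bases after the start, 5′ to 3′ on the gene's strand, from the RefSeq promoter table of build GRCm38.p6. Capitals mark matches, on either strand, to TTCNNNGAA (STAT factors), GAAA, any 2 bases and GAAA (interferon regulatory factors, IRF), GAGGAA (PU.1, the macrophage lineage factor) and CCAAT (NF-Y, a factor of MHC class II promoters). The Clec7a window lies at chr6:129472730-129473029 on the minus strand and is 1 of 2 listed for that gene, that of Cxcl13 at chr5:95956689-95956988 on the plus strand, that of Cybb at chrX:9469275-9469574 on the minus strand and that of Cxcl9 at chr5:92328030-92328329 on the minus strand.
Clec7a: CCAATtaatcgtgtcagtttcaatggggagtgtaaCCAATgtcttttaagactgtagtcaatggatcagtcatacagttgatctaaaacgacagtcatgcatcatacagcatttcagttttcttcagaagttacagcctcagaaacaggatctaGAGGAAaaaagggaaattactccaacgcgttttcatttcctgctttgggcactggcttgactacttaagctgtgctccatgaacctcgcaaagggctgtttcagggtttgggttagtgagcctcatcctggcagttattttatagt
Cxcl13: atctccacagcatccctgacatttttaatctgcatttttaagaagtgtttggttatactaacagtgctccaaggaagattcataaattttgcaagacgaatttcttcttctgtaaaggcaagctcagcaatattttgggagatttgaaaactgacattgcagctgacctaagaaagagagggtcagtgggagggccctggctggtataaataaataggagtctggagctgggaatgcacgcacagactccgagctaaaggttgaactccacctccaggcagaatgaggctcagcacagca
Cybb: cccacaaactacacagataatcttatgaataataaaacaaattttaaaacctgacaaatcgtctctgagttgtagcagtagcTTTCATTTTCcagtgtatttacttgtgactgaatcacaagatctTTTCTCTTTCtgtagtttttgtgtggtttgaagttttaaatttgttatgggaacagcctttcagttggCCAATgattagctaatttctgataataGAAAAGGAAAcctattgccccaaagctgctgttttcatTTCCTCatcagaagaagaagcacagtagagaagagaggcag
Cxcl9: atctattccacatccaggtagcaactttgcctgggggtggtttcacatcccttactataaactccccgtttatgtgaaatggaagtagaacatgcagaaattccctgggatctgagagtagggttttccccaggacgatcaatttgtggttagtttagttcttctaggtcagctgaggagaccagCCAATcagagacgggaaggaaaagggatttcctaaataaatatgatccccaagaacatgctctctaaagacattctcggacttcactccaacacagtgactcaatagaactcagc

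The Cybb window held 3 IRF matches, at 168, 124 and 29 bases upstream of the start, with 1 CCAAT and 1 PU.1 match. No 2 of the 3 IRF matches overlap. The Clec7a window held 2 CCAAT matches and 1 PU.1 match, the Cxcl9 window 1 CCAAT match, and the Cxcl13 window none of the 4 motifs. Of all 27025 promoters in the table, 8.37% held the STAT letters, 3.52% the IRF letters, 28.23% the PU.1 letters and 37.78% the CCAAT letters. Among protein-coding genes at least 2-fold higher in icKO, 115 had a promoter in the table and 15 of these (13.04%) held the IRF letters, against 3.6% of 8128 protein-coding genes kept. The STAT, PU.1 and CCAAT shares in the same 115 were 11.3%, 28.7% and 38.26%. Among protein-coding genes at least 2-fold lower in icKO, 4 of 44 promoters (9.09%) held the IRF letters, also above 3.6%. The IRF letters were in 13 of 19 promoters of antiviral genes, in 5 of 7 of the p200 genes and in 0 of 18 of the disease-associated genes. A match is a run of letters in the window and says nothing of a factor being bound there.

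The same 4 genes were followed over the other arrays. In naive microglia Clec7a was at 9.12 in control and 9.65 in icKO, and in EAE without the drug at 13.27 and 15.14. On the p50 arrays it was at 13.12 and 13.03. The iguratimod control array was thus the only EAE array on which Clec7a lay near its naive level. Cxcl13 was at 9.31 and 8.99 in naive, 11.98 and 14.63 in EAE, and 10.91 and 11.87 on the p50 arrays. Cybb ran from 8.61 and 8.33 in naive to 12.33 and 13.67 in EAE, with 10.10 and 10.69 on the p50 arrays. Cxcl9 was at 7.82 and 7.26, then 12.37 and 13.68, then 9.95 and 9.005. For each of the 4 genes the iguratimod level was closer to the untreated EAE level in icKO than in control.

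**Figure D2:**
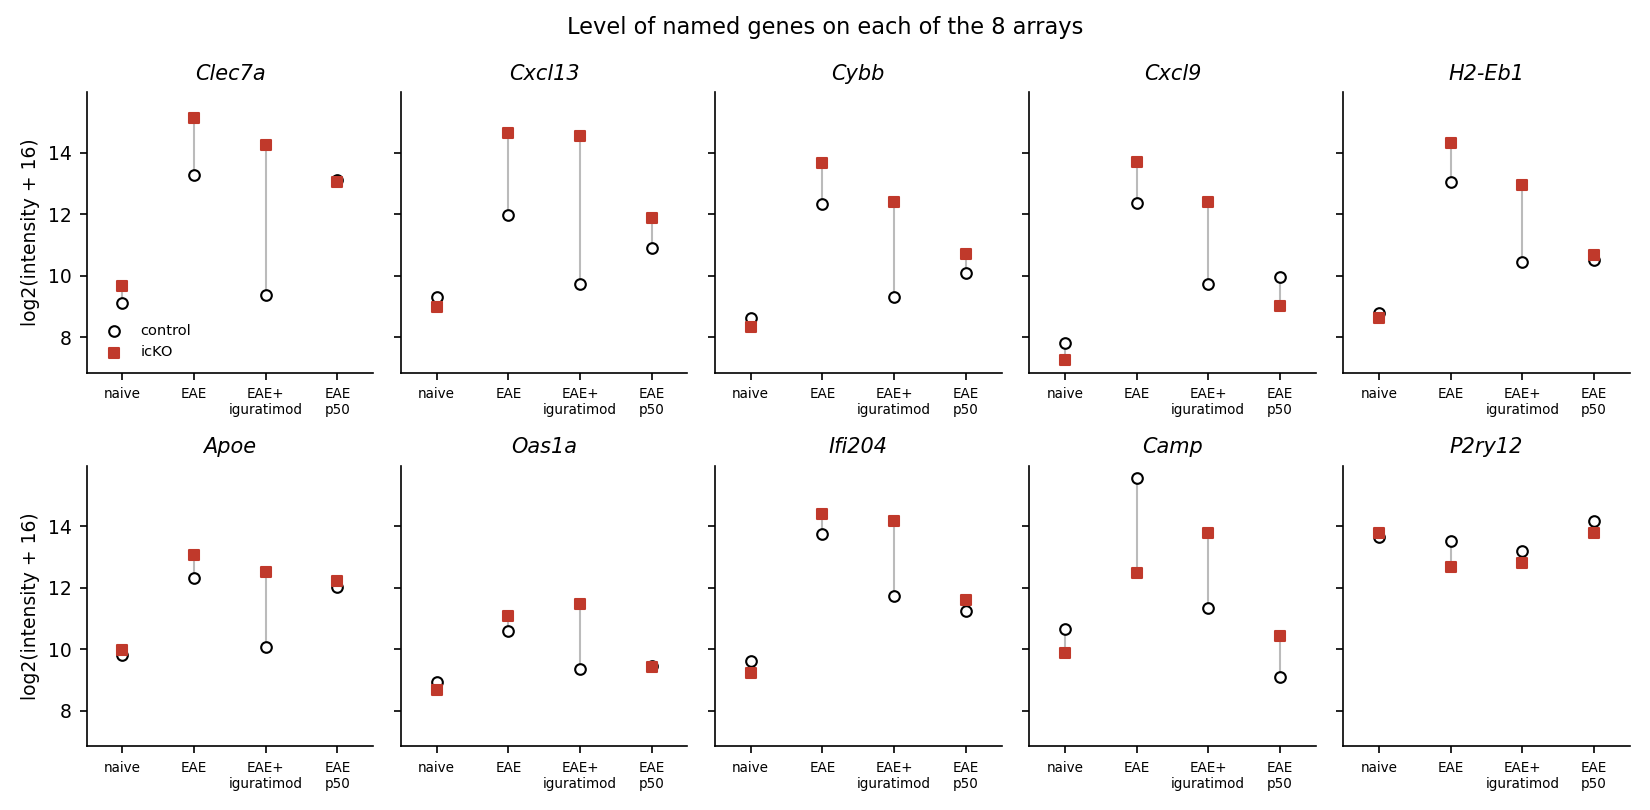
Level of 10 genes on each of the 8 arrays as log2(intensity + 16), with open circles for control and red squares for icKO, and 1 array a point. In Clec7a, Cxcl13, Cybb, Cxcl9, H2-Eb1, Apoe and Ifi204 the gap between the genotypes is widest under iguratimod, Camp changes direction between EAE and iguratimod, and P2ry12 stays between 12.67 and 14.17 on all arrays.

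The disease-associated programme was measured through 22 genes, all of them kept. In icKO 21 of the 22 were higher, 9 by at least 2-fold, and none was 2-fold lower. Their median difference was 0.76, against -0.01 over all genes kept and 227 of 16404 (1.38%) at least 2-fold higher. Besides Clec7a, the set was led by Cst7, an inhibitor of lysosomal cysteine proteases, at 9.83 in control and 12.33 in icKO. Apoe, the lipid carrier, had 10.06 and 12.51. Axl, a receptor for apoptotic cells, had 9.21 and 11.32. Ch25h, which makes 25-hydroxycholesterol, had 7.37 and 9.34, and its control value lay below the brightness limit. Itgax, the integrin CD11c, had 9.43 and 11.23. The lysosomal protease genes Ctsb and Ctsz were bright on both arrays and differed by 1.46 and 1.18, and the tetraspanin gene Cd63 by 1.39. Trem2, the lipid receptor on which the programme depends, differed by 0.20 (11.27 and 11.47) and its adaptor Tyrobp by 0.69 (16.52 and 17.22). Gpnmb, Igf1 and Lgals3 differed by 0.44, 0.33 and 0.31. Gpr84 was the one member lower in icKO, by -0.06. In EAE without the drug 17 of the 22 were also higher in icKO, with a median of 0.42. The median was 0.15 in naive and -0.03 on the p50 arrays.

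The homeostatic programme was split. Of its 22 genes 11 were higher and 11 lower in icKO, with a median of -0.01, which quantile normalization turned to 0.17. Cx3cr1, the fractalkine receptor gene, was at 18.26 in control and 18.27 in icKO, both above the scanner range. The icKO naive and control EAE arrays shared 1 exact value for it, 18.27. Sall1, the transcription factor gene that marks microglia, was at 12.89 and 12.86, and Tmem119 at 10.30 and 10.42. P2ry12, the purinergic receptor gene of surveying microglia, was lower in icKO with 13.20 and 12.79. Fcrls and Ltc4s were lower by -0.57 and -0.83, the latter the lowest of the list. Lag3, an inhibitory receptor gene, was the single member 2-fold higher, with 9.44 and 10.72. The growth factor receptor genes Csf1r and Tgfbr1 were higher by 0.54 and 0.77. Tgfbr2, which pairs with Tgfbr1 as the receptor for TGF-beta, was at 9.75 and 10.99. In EAE without the drug 21 of the 22 homeostatic genes were lower in icKO, with a median of -0.38.

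Antiviral genes induced by type I interferon were higher in icKO almost throughout. Of 30 genes 27 were kept, 26 of them higher in icKO, with a median of 0.88. At least 2-fold higher were 11 (40.7%), against 1.38% of all genes kept. Since 2 of the 27 entered through the icKO array alone, the median over all 30, 0.81, is given as well. Oas1a, an enzyme that signals through RNase L on viral RNA, was at 9.35 in control and 11.47 in icKO. Ifit2, which binds foreign RNA, was at 9.16 and 10.84. Oas2 had 8.31 and 9.97, and Usp18, a brake on interferon signalling, 8.60 and 10.18. The membrane-active Ifitm3 differed by 1.42, Oasl2 by 1.40, the E3 ligase genes Herc6 and Trim30a by 1.33 each, and the RNA sensor Ifih1 by 1.08. Familiar members at the low end were Ifit1 at 0.30, Ifit3 at 0.18 and Isg15, which was lower in icKO with 8.85 and 8.70. The list's median difference was -0.13 in naive microglia, -0.02 in EAE and 0.11 on the p50 arrays.

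The p200 genes encode DNA sensors and related nuclear proteins induced by interferon. Their median difference was 1.52, and 5 of 8 (62.5%) were at least 2-fold higher. Of all genes kept 1.38% were, and of the brighter nameable genes 4.05%. Ifi204 was at 11.74 in control and 14.18 in icKO, Ifi207 at 10.89 and 13.20, Ifi211 at 10.50 and 12.63 and Ifi209 at 10.54 and 12.49. Aim2, the sensor of the DNA inflammasome, was at 10.74 and 11.06. These genes are close paralogs, so probe sets can share signal between them. In the naive pair their median was -0.37, and in the EAE pair 0.34. The interferon-induced GTPase genes had a median of 0.62 with 10 of 10 higher, and Iigp1 alone reached 2-fold, with 8.90 and 10.12. In the EAE pair 8 of the 10 GTPase genes were also higher, with a median of 0.44. The GTPase median was -0.12 in naive and 0.10 on the p50 arrays.

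The signalling genes upstream of these targets differed less. Of 16 kept, none was 2-fold apart and 14 were higher, with a median of 0.38. Stat2, a subunit of the type I interferon response factor, was at 9.36 and 10.19, and Irf8, a macrophage lineage factor, at 10.73 and 11.53. The receptor genes Ifnar1, Ifnar2, Ifngr1 and Ifngr2 differed by 0.44, 0.39, 0.27 and 0.50. Irf7 was at 8.33 and 8.71, and Irf1 at 8.31 and 8.26, both close to the brightness limit of 8.24 and 8.15 on the 2 arrays.

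Antigen presentation genes were higher in icKO, and the peptide-binding chains of MHC class II led them. H2-Eb1 was at 10.43 in control and 12.94 in icKO, H2-Ab1 at 12.38 and 14.60 and H2-Aa at 9.97 and 11.77. The other class II genes were less than 2-fold apart, among them H2-DMa and H2-DMb1, which load peptides, at 0.59 each. Over 11 genes kept the median was 0.59. Ctss, the protease that trims the invariant chain, was at 18.61 and 18.69. In MHC class I, H2-K1 was at 12.49 and 13.84 and H2-D1 at 13.22 and 14.20, and the peptide transporter Tap1 at 9.79 and 10.57. The light chain gene B2m was at 18.94 and 19.22, and the median over 13 genes was 0.38. Of the proteasome genes 18 of 19 were higher, none by 2-fold, with a median of 0.38, while the 2840 brighter genes that could be named had a median of 0.25.

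**Figure D3:**
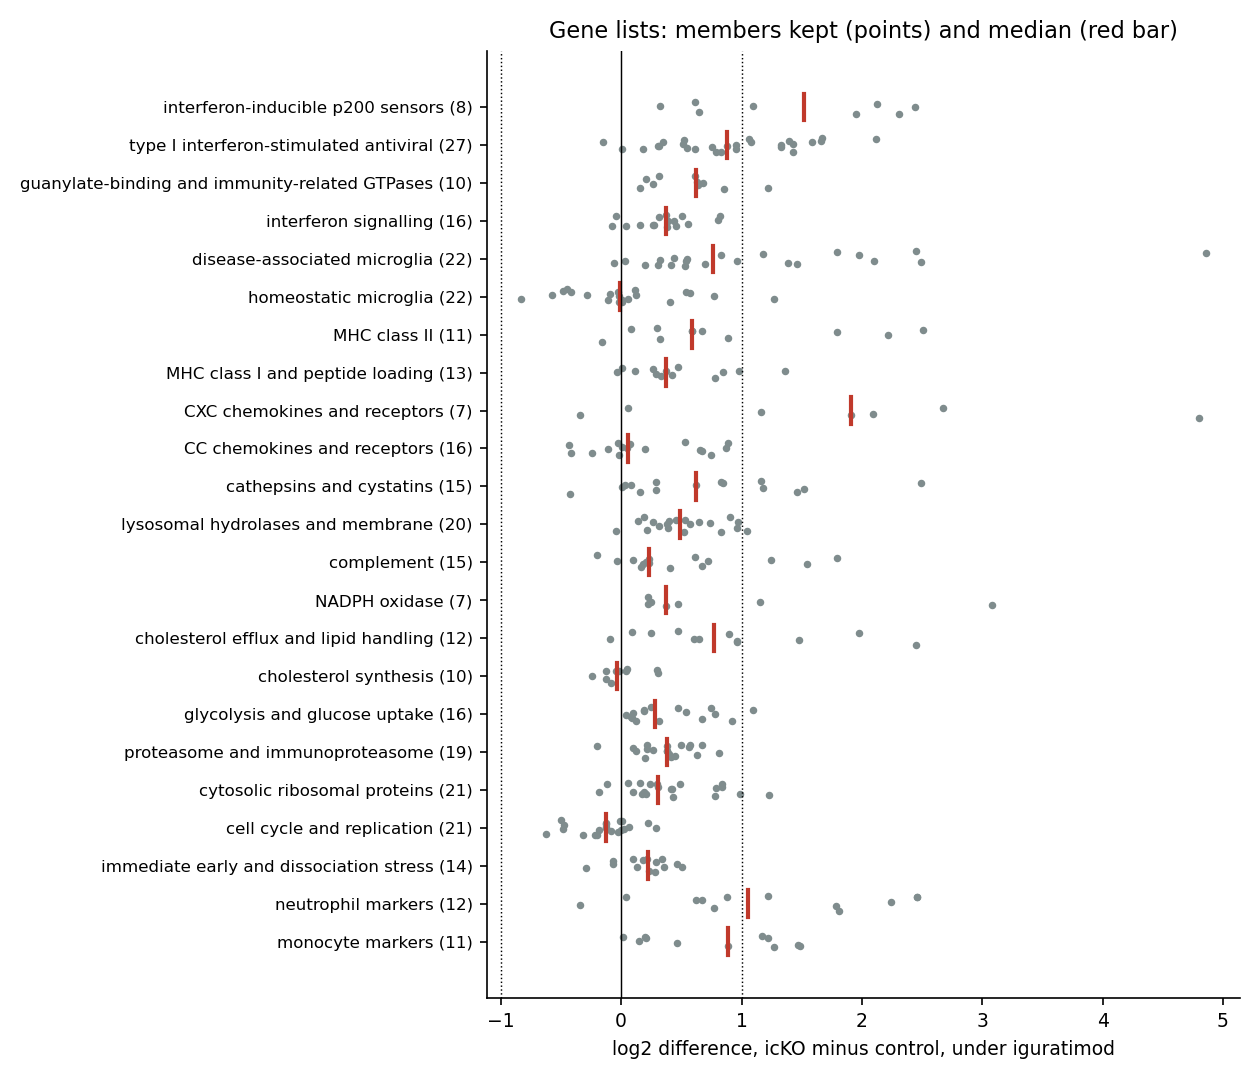
Each row is a gene list with the number of its genes kept in parentheses, each grey point is 1 gene and the red bar the list's median, on an axis of log2 differences between icKO and control under iguratimod. The dotted lines mark 2-fold. The points of the p200, antiviral and disease-associated lists lie mostly to the right of 0, and those of the homeostatic, cholesterol synthesis and cell cycle lists on both sides of it.

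Among chemokine genes a few CXC members were far apart and the CC members were not 2-fold apart. Of 18 CXC ligand and receptor genes only 7 were kept, 2 of them through the icKO array alone, and over all 18 the median was 0.05. Besides Cxcl13 and Cxcl9, Cxcl16, a ligand that is also a scavenger receptor, was at 10.85 in control and 12.76 in icKO. Cxcl10, which shares a receptor with Cxcl9, was at 8.29 and 9.46. Cxcr4 was at 6.37 and 8.47, with the control value below the brightness limit. The neutrophil attractant genes Cxcl1 and Cxcl2 were dim on both arrays, with 7.40 and 7.14 for the first and 7.48 and 8.01 for the second. Among 16 CC genes kept none was 2-fold apart, and their median was 0.06. Ccl2, which draws monocytes, was at 12.85 and 13.51, Ccl3 at 13.78 and 14.53 and Ccl5 at 9.05 and 9.92. The gap for Ccl2 and Ccl3 was wider in the untreated EAE pair, where it was 2.84 and 3.56.

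Genes of mediators reported to respond to iguratimod were mostly dim. Of 16 on the array 7 were kept, and the median over all 16 was 0.01. Il1b, the main interleukin 1 gene, was at 8.71 in control and 10.32 in icKO. Nfkbia, the inhibitor that NF-kB induces against itself, was at 9.70 and 10.83. Tnf was at 8.66 and 9.52, and Mif, which encodes the migration inhibitory factor, at 9.38 and 9.89. Ptgs2, the gene of cyclooxygenase 2, was at 7.67 and 8.04 and Il6 at 8.23 and 8.03, below the limit on both arrays. Il1rn, the natural antagonist of interleukin 1, was 2-fold higher with 8.34 and 9.36. The NF-kB list, in which Nfkbia is also counted, had a median of 0.27 over the 14 genes kept. Of these 3 passed the limit on the icKO array alone, and over the 16 on the array the median was 0.24. Nfkbia was the single member 2-fold apart. Among the inflammasome genes Casp4 differed by 0.83, and Nlrp3, Pycard and Il1a by 0.18, 0.08 and 0.06.

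Receptors for microbes and immune complexes showed a few large differences. Tlr1 and Tlr2, which act as a pair on lipoproteins, were at 10.03 and 11.42 and at 8.77 and 9.77. Of the 17 Toll-like receptor and adaptor genes kept 13 were higher and 4 lower, with a median of 0.28. Over the 21 on the array the median was 0.23, and the brighter nameable genes had a median of 0.25. Fcgr4, an activating receptor for antibodies, was at 10.88 and 11.93, and the median of its list of 11 genes was 0.42. Among the C-type lectins Clec7a was the single one 2-fold higher and Clec4a2, an inhibitory receptor gene, the single one 2-fold lower, at 11.47 in control and 10.40 in icKO. Clec4b1 differed by -0.74. The list's median was 0.00 to 2 decimals, and changed sign under 4 of the alternative settings. Havcr2, the checkpoint receptor TIM-3, was at 10.56 and 11.70. Lilrb4a, an inhibitory receptor gene, was at 11.07 and 13.44, and Lgals3bp, which encodes a secreted galectin ligand, at 10.30 and 12.52.

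Some genes of uptake and digestion were at least 2-fold higher in icKO. Cyba, the partner of Cybb in the oxidase membrane complex, was at 13.37 in control and 14.52 in icKO, and the cytosolic subunit genes Ncf1 and Ncf4 differed by 0.37 and 0.47. In the complement list C4b was at 9.40 and 10.94 and C3ar1, a receptor for a complement fragment, at 12.14 and 13.38. The C1q genes C1qa, C1qb and C1qc differed by 0.23, 0.41 and 0.18, and the median of the 15 complement genes kept was 0.24. Of 13 genes in the list of TAM receptors and uptake 9 were higher and 4 lower, with a median of 0.19 and of 0.10 over the 16 on the array. Of 15 cathepsin and cystatin genes kept 14 were higher and 5 (33.3%) at least 2-fold, against 1.38% of all genes and 4.05% of the brighter nameable ones. Among the 5 were Cstb at 10.88 and 12.41 and Ctsc at 12.003 and 13.17. Over the 19 on the array the median was 0.29. Of 20 lysosomal genes 19 were higher with a median of 0.49, and Hexa reached 2-fold with 13.23 and 14.27. Lamp1, Lipa and Scarb2 differed by 0.97, 0.97 and 0.91.

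Several lipid export and uptake genes were higher in icKO, and sterol synthesis genes lay near 0. Of 12 genes of lipid handling 11 were higher, with a median of 0.77, or 0.54 over the 16 on the array, since 3 of the 12, among them Cd36 and Lpl, passed the limit on the icKO array alone. Cd36, a receptor for oxidised lipids, was at 8.06 in control and 9.53 in icKO, Lpl at 8.03 and 8.99 and Abca1, the cholesterol exporter, at 10.96 and 11.85. The 10 sterol synthesis genes ran from -0.24 to 0.30 with a median of -0.03, a sign that turned under 3 alternative settings. The 16 glycolysis genes kept had a median of 0.28, and as 2 of them passed the limit on the icKO array alone, the median over the 19 on the array, 0.19, is given as well. Hif1a, which drives glycolytic genes, was at 9.96 and 11.05, Slc2a1, the glucose transporter, at 9.48 and 10.26 and Tpi1 at 9.57 and 10.49. Ribosomal protein genes had a median of 0.30 and respiratory chain genes of 0.32, so that small positive medians were common among bright protein-coding lists.

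Genes of division and of acute stress were not higher by 2-fold in any case. The cell cycle list had a median of -0.12, with Mki67, a marker of dividing cells, at 11.23 in control and 10.61 in icKO and Top2a at 8.76 on both. The immediate early genes, which tissue dissociation also induces, had a median of 0.22. Fos was at 9.85 and 10.08, Jun at 11.50 and 11.43 and Dusp1 at 16.41 and 16.68. In the other pairs the same list was higher in icKO by a median of 0.62 in naive, 1.28 in EAE and 0.95 on the p50 arrays.

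Markers of other cells were measured in the same RNA. The 11 microglia and macrophage identity genes on the array were all kept, with a median difference of 0.11. Of 18 neutrophil markers 12 were kept, 11 were higher in icKO and 6 at least 2-fold, with a median of 1.05 and of 0.65 over all 18. Over all 18 on the array the count at least 2-fold higher was also 6. Of all genes kept 1.38% were at least 2-fold higher, and of the brighter nameable ones 4.05%. Retnlg was at 9.15 in control and 11.60 in icKO, Camp at 11.32 and 13.78, Ngp at 12.54 and 14.78 and S100a8 at 13.59 and 15.40. Ly6g, the marker used to sort neutrophils, was at 10.11 and 10.15, and Cxcr2 was lower in icKO with 9.60 and 9.26. Elane and Mpo, genes of immature neutrophils, were below the limit on both arrays. The log2 of the summed intensity of the list was 15.66 in control and 17.19 in icKO. It was 15.12 and 14.003 in naive, 19.86 and 16.88 in EAE, and 14.79 and 14.97 on the p50 arrays, so that the order of the genotypes in EAE was opposite to that under iguratimod. In RNA of a bulk sample, more cells of a type and more RNA per cell cannot be told apart.

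Monocyte markers were also higher in icKO under iguratimod. Of 14 on the array 11 were kept and all 11 were higher, with a median of 0.89 and of 0.36 over all 14. At least 2-fold higher were 5 (45.5%), against 1.38% of all genes kept and 4.05% of the brighter nameable ones. Fn1, 1 of these 5, passed the brightness limit on the icKO array alone. Over all 14 on the array the count was also 5. Ly6c2, the marker of inflammatory monocytes, was at 11.28 in control and 12.50 in icKO, Ms4a4c at 10.05 and 11.53 and Fn1 at 8.09 and 9.57. Ccr2, the receptor that brings monocytes into tissue, was at 8.31 and 9.20. The log2 summed intensity of the list was 12.82 and 13.83 under iguratimod, 12.23 and 11.98 in naive, 14.84 and 14.92 in EAE, and 12.27 and 12.53 on the p50 arrays. Genes such as H2-Ab1, Itgax, Cybb, Cxcl9 and Apoe are also used by monocyte-derived cells, and the part of neutrophils and monocytes in the differences above was not tested. Border macrophage markers had a median of -0.23, with Mrc1 at 8.26 and 8.06, and dendritic cell markers of -0.28, with Xcr1 at 8.60 and 7.68. Of the 14 T cell markers 4 were kept, 1 higher and 3 lower in icKO, with a median of -0.19 and of -0.09 over all 14. Il7r was lower in icKO with 10.59 and 9.98. Cd3e, at 8.12 and 8.23, was the single higher one and passed the limit on the icKO array alone. Of the 9 B cell markers 2 were kept, both lower in icKO.

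Of 11 oligodendrocyte markers only Mag passed the brightness limit, at 8.25 in control and 8.24 in icKO, and Mbp and Mog were below it on both arrays. The genotypes rest on the labels. The Y-linked genes Kdm5d, at 9.06 and 9.02, and Uty, at 9.16 and 9.42, were above the limit on both arrays and Xist, at 7.98 and 8.05, below it.

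**Figure D4:**
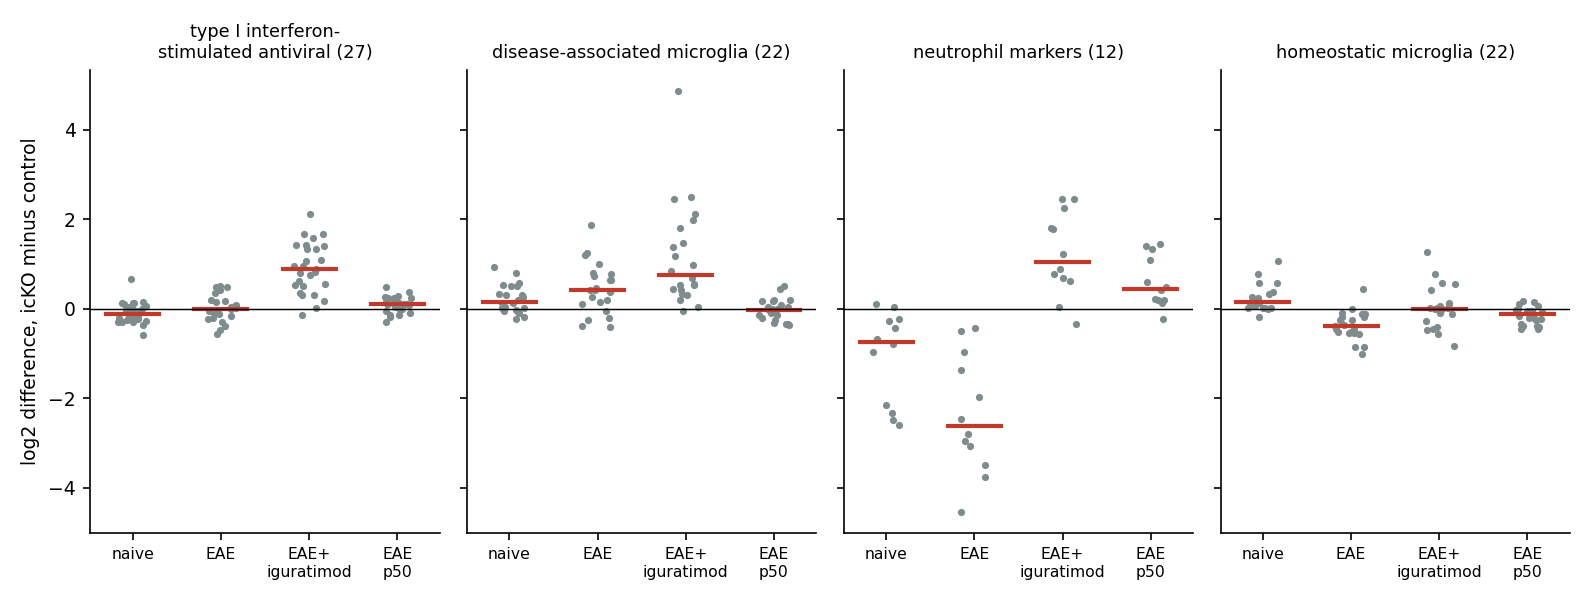
Log2 differences between icKO and control for the genes of 4 lists (number kept in parentheses) in the naive, EAE, iguratimod and p50 pairs, with 1 point a gene and a red bar at the list's median. The antiviral median is 0.88 under iguratimod and between -0.13 and 0.11 in the other pairs, and the neutrophil median is 1.05 under iguratimod and -2.63 in EAE.

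Genes lower in icKO were mostly not protein-coding. Of the 740 small nucleolar RNA genes kept, 122 (16.5%) were at least 2-fold lower and 9 higher, with a median of -0.47. Small nucleolar RNAs guide the chemical modification of ribosomal RNA. Their median was -0.22 in naive, 0.04 in EAE and 0.07 on the p50 arrays, and after quantile normalization 106 were at least 2-fold lower under iguratimod. Pseudogenes supplied 88 of the 350 lower genes (3.13% of 2809 kept) and small nuclear RNAs 31 (4.81% of 645). MicroRNAs supplied 24 (4.90% of 490) and long noncoding RNAs 19 (1.66% of 1144). The share over all genes kept was 2.13%, so long noncoding RNAs lay below it. Many of these genes exist in near-identical copies that can share probe signal. Among the 8810 genes of kinds that could be named, 132 were at least 2-fold higher and 13 lower.

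**Figure D5:**
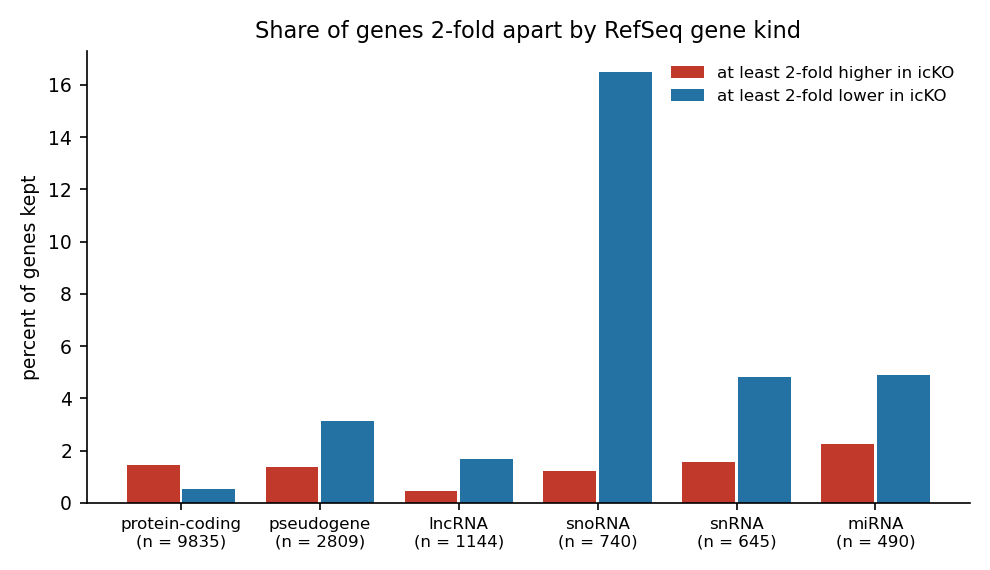
Percent of the genes kept that were at least 2-fold higher (red) or lower (blue) in icKO under iguratimod, for 6 RefSeq gene kinds with the number of genes kept under each. Small nucleolar RNAs have the tallest blue bar, at 16.5%, and protein-coding genes have more higher than lower genes.

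The lowest nameable genes differed by less than the highest ones. Zfp640, a zinc finger gene, was at 12.25 in control and 10.75 in icKO, a difference of -1.50. Crh, the corticotropin-releasing hormone gene, was at 9.69 and 8.60, and Bank1, a B cell adaptor gene, at 10.97 and 9.96. Mid1 was at 15.33 and 14.27, whereas in naive it was 1.42 higher and on the p50 arrays 1.498 higher in icKO. Spopfm2, Taar7f, Defa40, Rasl2-9, H2-M10.3 and Sly were lower by between -0.99 and -1.11. The Astx1 copies shared 1 set of values, 11.69 and 10.73, so they count as a single measurement. Genes of multicopy families among them can share probe signal, so their values are uncertain.

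The other pairs, measured on other arrays, give the background for these counts. The p50 arrays stood apart in the Y-linked gene Sly, at 8.85 in control and 9.30 in icKO, against 14.65 and 13.66 under iguratimod. On the naive and EAE arrays Sly lay between 13.73 and 14.71. Whether the mice of the p50 pair were of another sex was not tested. Over the same 16404 genes, 44 (0.268%) were at least 2-fold higher and 252 (1.54%) lower in icKO in naive, 174 (1.06%) higher and 92 (0.561%) lower in EAE, and 41 (0.25%) higher and 12 (0.0732%) lower on the p50 arrays. Of the 227 genes higher under iguratimod, 28 were also at least 2-fold higher in the EAE pair, which is 12.3% of the former and 16.1% of the latter. A further 14 were at least 2-fold lower there. In the EAE pair 67.0% of the 227 were higher in icKO to any extent, against 46.9% of all genes. In the naive pair 50.7% of the 227 were higher, against 49.4% of all genes, with 2 at least 2-fold higher and 10 lower, and on the p50 arrays 55.5% against 44.0%. Across all genes kept, the Pearson correlation of the iguratimod differences with those of the EAE pair was -0.01, a description over genes that are not independent. The shared genes that could be named were 21, among them Clec7a, Cxcl13, Cybb, Cxcl9, Cst7, Il1b, Itgax, Cd36, Fn1 and the 3 class II chain genes. The 7 nameable genes with opposite 2-fold differences were Camp, Cdr1, Ltf, Ngp, Retnlg, S100a8 and S100a9, of which all but Cdr1 are neutrophil markers. Of the 350 lower genes, 20.6% were higher in icKO in the naive pair, 64.6% in the EAE pair and 57.4% on the p50 arrays.

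Whether the genotype difference under iguratimod departs from that in the other 3 pairs was tested with limma over all 8 arrays, with a genotype term shared by the states and a term of its own for iguratimod. None of the 16404 genes passed an adjusted p of 0.05 (0%), the lowest adjusted p was 0.477, and 1502 genes (9.16%) had an unadjusted p under 0.05. For Ifit2 the iguratimod difference exceeded that of the other pairs by 1.54 ± 0.20 (SE), for Apoe by 2.06 ± 0.31, for Oas1a by 2.05 ± 0.34 and for Clec7a by 4.09 ± 0.77, each with an adjusted p of 0.477. For Jun it fell short by -1.54 ± 0.22 and for Zfp640 by -1.28 ± 0.19, with the same adjusted p. Cxcl13, at 3.70 ± 1.13, had an adjusted p of 0.525. The fit leaves 2 residual degrees of freedom. Its spread for a gene is how far the other 3 pairs differ from one another, moderated toward a value estimated over all genes. That value was an SD of 0.146, with 2.77 prior degrees of freedom.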

How the data were processed

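Microglial RNA was profiled on 8 Affymetrix whole-transcript arrays, 1 for each group. Total RNA was prepared with TRIzol and a column kit and labelled with biotin by a pico kit, per the labels' protocols. Affymetrix Expression Console is the software in the submitters' processing notes, and the deposited intensities are on a linear scale, with array medians of 243 to 269. How probes were summarised, the version and the genome build are not given in the sources used here. Of 65956 rows, 31221 carried 1 gene symbol, 1529 several (left out) and 33206 none in the probe table used, and 827 symbols were updated through RefSeq (GRCm38.p6). Of 30748 genes, 364 had several probe sets and were given by the brightest.

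From these the log2 of each deposited intensity plus 16 was taken, which understates differences of dim genes, and 16404 genes above the 50th percentile of named probe sets on either iguratimod array were kept. Without detection calls, low expression and absence look alike. Differences of at least 2-fold were counted without a test. The iguratimod genotype term was fitted with limma 3.58.1 in R 4.3.3 (lmFit, eBayes, Benjamini-Hochberg over all genes kept) and its code was checked on simulated data. The simulation gave every gene the same spread, so it does not show how the fit behaves on these arrays. The p-values of this term rest on how far the genotype differences of the other 3 pairs differ from one another, moderated toward a spread estimated over all genes. Nothing says the arrays came from separate animals, so these p-values do not measure spread between animals. Named genes were the 15 highest and 15 lowest among genes above the 60th percentile, and up to 6 of each list at least 2-fold apart. Pseudogenes, small RNAs, predicted loci, antigen receptor segments and chemosensory receptors of the Olfr, Vmn and Tas families entered counts without being named. Genes shown for contrast below 2-fold were chosen after their values were seen. The comparison and the gene lists were chosen with earlier results of these data known. Alternatives were other filters, normalizations, pseudocounts, probe set rules and fold thresholds, and leaving out each other pair. The targeted gene is not reported here.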

Additional observations from a re-analysis of the deposited data

Results flagged for a closer look

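Some genes had genotype differences of opposite direction in the iguratimod pair and in other pairs. As each pair holds 1 array a side, the differences between single pairs were not tested, and the limma term for iguratimod gives adjusted p-values of 0.546 for Retnlg, 0.607 for Camp, 0.598 for Ngp and 0.477 for Mid1. The median of the 12 neutrophil markers kept was 1.05 (icKO minus control, log2 scale) under iguratimod, -0.74 in naive, -2.63 in EAE and 0.44 on the p50 arrays. Retnlg, a neutrophil resistin-like protein gene, differed by 2.46 under iguratimod, -2.16 in naive, -4.54 in EAE and 0.19 on the p50 arrays. Camp, the cathelicidin gene, differed by 2.45 under iguratimod, -0.80 in naive, -3.08 in EAE and 1.33 on the p50 arrays. Ngp, which encodes a neutrophil granule protein, differed by 2.24 under iguratimod, -2.33 in naive, -1.97 in EAE and 1.40 on the p50 arrays. Mid1, a ubiquitin ligase gene that spans the border of the pseudoautosomal region in mice, differed by -1.06 under iguratimod, 1.42 in naive, 0.502 in EAE and 1.498 on the p50 arrays.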

How the results depend on the processing

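A 1.5-fold threshold gave 962 genes higher and 1500 lower, and keeping only protein-coding genes, an alternative chosen after seeing the data, gave 142 higher and 51 lower. The counts at 2-fold stayed within 1.5 times the reported 227 and 350 under the other 7 alternatives, from 197 to 323 higher and from 240 to 388 lower. Without the brightness filter the medians of the CXC chemokine list (0.05), the list of mediators reported to respond to iguratimod (0.01) and the monocyte list (0.36) moved down, since dim members then enter, and the other 370 list medians recomputed, over 47 lists with at least 3 genes left, stayed within 0.5 log2 units. The border macrophage list kept 1 gene above the 70th percentile, with a difference of 0.72. Of the list medians 5 changed sign in some setting, those of the homeostatic, C-type lectin, cholesterol synthesis, purinergic and natural killer lists, each at most 0.24 in size as reported. The 604 recomputed differences of 121 single genes stayed within 0.5 as well, and 1 gene, Mag, at -0.01 as reported, changed sign, to 0.08 under both quantile normalization and centring. The limma term called 0 genes in each of its 6 alternatives, with the lowest adjusted p between 0.228 without the naive pair and 0.889 without the p50 pair. At an unadjusted p under 0.05 there were 1502 genes as reported, 2387 without the naive pair and 859 without the p50 pair. No paired analysis was possible because the labels give no replicate numbers, other than the matching of the genotypes within each state that the limma fit already uses, and no array could be left out of the iguratimod pair. Precision is limited by there being 1 array a group.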

Other observations

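Further genes were at least 2-fold higher in icKO in lists not described above, and other members of these lists are given with their values. The Ms4a genes, a cluster of membrane proteins of myeloid and B cells, included Ms4a6c, at 11.14 in control and 12.42 in icKO, and Ms4a6d, at 12.26 and 12.52, with a median of 0.16 over the 13 on the array. Anxa5, which binds phosphatidylserine, was at 8.77 and 10.03, and the median of the galectin and annexin list was 0.42 over the 16 on the array, 3 of the 13 kept having passed the limit on the icKO array alone. In the iron and oxidative stress list Ftl1, the ferritin light chain gene, was at 11.36 and 12.64, Gpx1 at 12.66 and 13.60 and the phagosomal metal transporter Slc11a1 at 10.64 and 11.56. Slc40a1, the iron exporter gene, was lower in icKO with 9.57 and 8.96. None of the 14 lineage factors kept was 2-fold apart, and Cebpa was at 13.49 and 14.32, Runx1 at 10.61 and 11.11 and Maf at 14.42 and 14.07. Of eosinophil, basophil and mast cell markers 4 were kept, none 2-fold apart, and Mcpt8 was at 8.76 and 8.15.

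Of the rows that the probe table does not name, 15560 lay above the brightness limit, and 405 of them (2.60%) were at least 2-fold higher in icKO and 738 (4.74%) at least 2-fold lower, with a median of -0.14.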
